A study of Homo sapiens with 24 samples.

Results

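OCUG-1, a gallbladder cancer cell line, was treated for 72 h with sorafenib at 10 µM or with vehicle, and the 3 RNA-seq libraries of each arm were compared across all genes. The 6 libraries were chosen by cell line and arm alone and make up 6 of the 24 libraries of a study of 2 biliary tract cancer lines. The vehicle was DMSO at no more than 0.1%, the cells grew in DMEM supplemented with antibiotics and 10% serum, and nothing but the drug is labelled as different between the arms. For comparison the text also uses 3 OCUG-1 libraries at 1.25 µM sorafenib, 3 OCUG-1 libraries at 1.25 µM sorafenib with 1 µM IACS-010759 (the combination), and the 3 vehicle and 3 10 µM libraries of HuCCT1, an intrahepatic cholangiocarcinoma line grown in RPMI-1640. The labels call the libraries of an arm independent biological replicates. OCUG-1 is a single line, so the values describe that line and not gallbladder cancer in general.

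Sorafenib is an oral inhibitor of several kinases, among them the RAF kinases and the VEGF and PDGF receptors, and it is also known to disturb mitochondrial respiration. Cells answer misfolded protein in the endoplasmic reticulum (ER) with the unfolded protein response, misfolded protein in the cytosol with heat shock factor, and several stresses at once with the integrated stress response, in which phosphorylation of eIF2alpha slows translation while the transcription factor ATF4 is made. IACS-010759 inhibits complex I of the respiratory chain. Bile duct and gallbladder cells are epithelial cells that carry the keratins KRT7, KRT8, KRT18 and KRT19.

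The vehicle libraries held 16295146, 16788347 and 16525314 counts and the 10 µM libraries 24019011, 21407522 and 17982911. A count was present for 32260 to 32726 genes with vehicle and for 35156 to 37832 genes at 10 µM. The mitochondrial genome took 13.6%, 11.1% and 11.9% of the counts with vehicle and 6.25%, 5.65% and 5.95% at 10 µM. Among 13970 tested protein-coding genes in 5 equal classes by the GC content of the transcript, the median log2 fold change ran from 0.26 in the lowest class to -0.32 in the highest. By transcript length it ran from 0.14 in the shortest class to -0.0056 in the longest. These shifts in depth, mitochondrial share and GC content moved with the arms, and their part in the results below was not tested. Extra runs were merged into 4 of the OCUG-1 libraries, which the labels do not name, so runs and arms cannot be told apart.

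Values are CPM, the usual count scaled to library size, here with TMM factors. A gene is called changed at an adjusted p under 0.05 (edgeR's quasi-likelihood test, Benjamini-Hochberg over all genes), and fold changes are log2 values of 10 µM against vehicle with their standard error. Of 20511 genes tested, 12943 were called (63.1%). Of these, 6645 were higher at 10 µM (32.4% of the genes tested) and 6298 were lower (30.7%), and 6920 were called and changed at least 2-fold (33.7%). The median log2 fold change over all genes was 0.00068. Protein-coding genes leaned upward, with 5150 called higher and 4372 lower of 13957, while long non-coding genes leaned the other way, with 716 higher and 1077 lower of 3446. The percentages just given are the background for every count of list members below, and the gene lists were assembled with earlier results of these data known. In bulk RNA a lower share of cells making a transcript and less of it per cell cannot be told apart. Between replicates of an arm the biological coefficient of variation was 0.131.

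**Figure D1:**
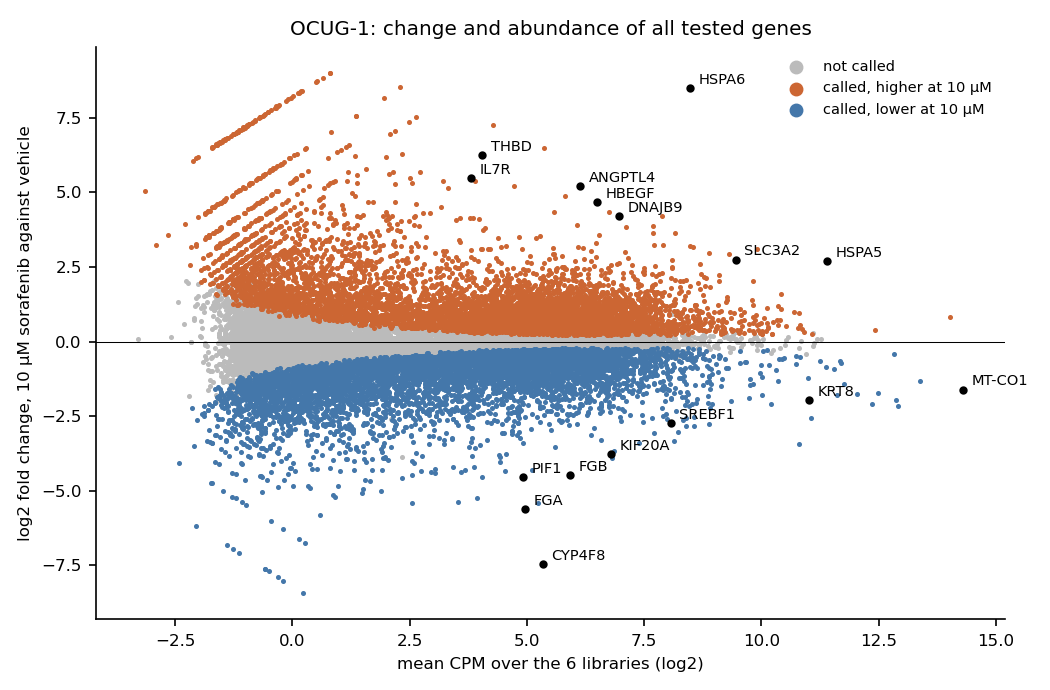
Each point is 1 of the 20511 genes tested in OCUG-1, with its mean CPM over the 3 vehicle and 3 10 µM libraries (log2, x axis) and its log2 fold change, 10 µM against vehicle (y axis); 6645 genes called higher are orange, 6298 called lower are blue and the rest grey. Labelled genes are among those described in the text.

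The largest rise among the abundant protein-coding genes was that of HSPA6, a stress-inducible HSP70 chaperone that most unstressed cells barely make (chr1:161524540-161526910, GRCh38, plus strand). It measured 2.78, 1.69 and 1.43 CPM with vehicle and 716, 392 and 1040 CPM at 10 µM (log2 fold change 8.51 ± 0.52, adjusted p = 1.2e-07). The arms did not overlap, and replicate 2 was the lowest of the treated libraries. The thrombin receptor thrombomodulin, THBD, measured 0.247, 0.542 and 0.477 CPM with vehicle and 31.9, 42.5 and 23.9 CPM at 10 µM (log2 fold change 6.25 ± 0.27, adjusted p = 3.7e-12). CRYAB, a small heat shock protein, measured 0.0617, 0.301 and 0.358 CPM with vehicle and 8.78, 10.6 and 13.99 CPM at 10 µM (log2 fold change 5.48 ± 0.37, adjusted p = 5.8e-10). Both were under 1 CPM in every vehicle library and above it in every treated one. Other genes among the 15 largest rises were SPRR2D (6.48), a cornified envelope protein, the interleukin-7 receptor IL7R (5.48), the mucin MUC13 (5.38), the urate transporter SLC2A9 (5.31) and the lipid-handling enzyme ALOXE3 (5.21). Also in this group were ANGPTL4 (5.202), an inhibitor of lipoprotein lipase, the amine oxidase AOC3 (5.15), the transcription factor NHLH1 (5.396), ZNF280A (4.89), HBEGF (4.68), which is a ligand of the EGF receptor, and RASD1 (4.602), a small GTPase. GPA33, an intestinal surface antigen, had only 3 counts over the vehicle libraries and 779 at 10 µM, and no fold is given for it. SPRR2D and HSPA6 have close copies in the genome, so their reads may be partly shared with those copies.

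CYP4F8, a fatty acid hydroxylase of the cytochrome P450 4F family, showed the largest fall among the same genes. It measured 92.8, 76.6 and 72.2 CPM with vehicle and 0.569, 0.223 and 0.566 CPM at 10 µM (log2 fold change -7.47 ± 0.23, adjusted p = 7.2e-14). All treated libraries lay below 1 CPM, and the arms were far apart. CYP4F8 lies at chr19:15615218-15630638, and 2 of its neighbours in the same cluster were also among the 15 largest falls, CYP4F3 (chr19:15640897-15662825, log2 fold change -4.05 ± 0.18, adjusted p = 3.7e-12) and CYP4F12 (chr19:15672757-15697174, log2 fold change -4.35 ± 0.17, adjusted p = 1.2e-12). Members of this family are alike in sequence, so reads may be shared among them. The alpha chain of fibrinogen, FGA, measured 56.9, 70.0 and 56.6 CPM with vehicle and 1.504, 0.937 and 1.303 CPM at 10 µM (log2 fold change -5.60 ± 0.20, adjusted p = 4.2e-13), and the beta chain FGB measured 100.3, 130.2 and 116 CPM with vehicle and 5.16, 4.78 and 5.83 CPM at 10 µM (log2 fold change -4.46 ± 0.17, adjusted p = 5.8e-13). PIF1, a DNA helicase of telomeres and stalled forks, fell from 58.4 to 2.49 CPM (log2 fold change -4.56 ± 0.24, adjusted p = 1.0e-10). The other falls in this set were CARNS1 (-4.54), which makes carnosine, IFNE (-4.47), an epithelial interferon, the complement genes C4A (-4.38) and C4B (-4.41), the lipoprotein receptor LRP1B (-4.32), UGT1A1 (-4.29), the bilirubin-conjugating enzyme, SCART1 (-4.27), PTCHD4 (-4.22) and ADGRF1 (-4.22). C4A and C4B are near-identical copies, and UGT1A1 shares exons with other UGT1A genes, so the split of reads between copies is uncertain.

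**Figure D2:**
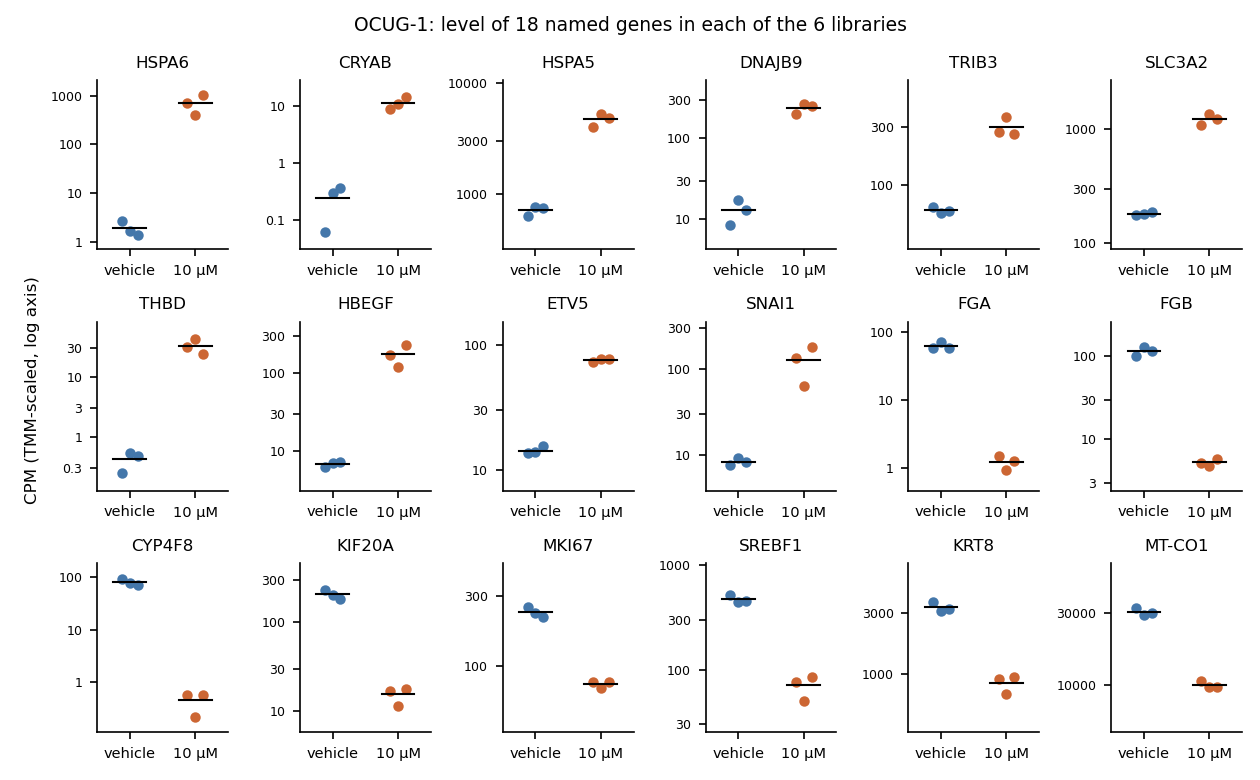
CPM (TMM-scaled, log axis) of 18 genes named in the text in each OCUG-1 library, 3 with vehicle (blue) and 3 at 10 µM sorafenib (orange), with a black line at the mean of each arm. No gene shown has overlapping arms. The lowest treated value is in replicate 2 for HSPA6, SNAI1 and HBEGF, and also for CYP4F8, FGA, FGB, KIF20A, MKI67, SREBF1, KRT8 and MT-CO1. For HSPA5, DNAJB9, TRIB3, SLC3A2, THBD and ETV5 the highest treated value is in replicate 2.

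Genes of the ER unfolded protein response rose almost as a whole: 21 of 22 tested members rose and 0 fell, with a median log2 fold change of 1.69. HSPA5, the main ER chaperone (BiP), measured 644, 764 and 755 CPM with vehicle and 3988, 5301 and 4860 CPM at 10 µM (log2 fold change 2.71 ± 0.16, adjusted p = 1.3e-10). Every treated library was above every vehicle library. HERPUD1, which works in ER-associated degradation, measured 35.4, 46.7 and 45.4 CPM with vehicle and 433, 603 and 547 CPM at 10 µM (log2 fold change 3.63 ± 0.18, adjusted p = 9.0e-11). DNAJB9, a co-chaperone of HSPA5, went from 12.95 to 237 CPM (log2 fold change 4.19 ± 0.29, adjusted p = 6.4e-08). XBP1, the transcription factor whose mRNA is spliced by IRE1, rose by 2.26 ± 0.15, DNAJB11 by 2.08 ± 0.12 and SEL1L, a part of the degradation complex, by 2.05 ± 0.13 on the log2 scale. Rises of 3 other chaperones were smaller, with 0.99 ± 0.14 for HSP90B1, 0.62 ± 0.12 for CANX and 0.56 ± 0.12 for CALR. The summed level of the list was 5795 to 6939 CPM with vehicle and 15013 to 18012 CPM at 10 µM, without overlap.

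Promoters are shown for this list because its members moved together. Motifs searched in other lists and not shown are given with the processing. The ER stress response element, searched as CCAAT, 9 bases of any kind and CCACG on both strands, occurred in the promoters of 6 of 20 members that rose (30%) and in 0.0806% of 27305 promoters (RefSeq, GRCh38.p14, 250 bases before to 50 after the start of each gene). The matches below stand in capitals with 20 bases on each side, all before the annotated start.
HSPA5 (chr9:125241371-125241429, minus strand): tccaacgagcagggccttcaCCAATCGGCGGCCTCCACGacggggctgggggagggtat
XBP1 (chr22:28800583-28800641, minus strand): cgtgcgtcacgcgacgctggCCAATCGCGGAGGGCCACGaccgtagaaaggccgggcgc
CRELD2 (chr22:49918534-49918592, plus strand): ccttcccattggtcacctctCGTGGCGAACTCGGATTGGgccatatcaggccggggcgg
HSP90B1 (chr12:103930301-103930359, plus strand): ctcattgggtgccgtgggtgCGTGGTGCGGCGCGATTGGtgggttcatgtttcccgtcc
A match is a description of the letters and not evidence of binding. CRELD2, an ER protein that binds calcium, rose by 1.45 ± 0.12. In the windows of CRELD2 and HSP90B1 the element reads on the opposite strand.

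The cytosolic heat shock genes moved in the same direction without exception: 16 of 16 tested members rose and 0 fell, with a median log2 fold change of 1.95. BAG3, a co-chaperone that feeds HSP70 clients to autophagy, measured 101, 118 and 102 CPM with vehicle and 805, 746 and 985 CPM at 10 µM (log2 fold change 2.98 ± 0.13, adjusted p = 5.5e-12). The HSP110 chaperone HSPH1 measured 122, 178 and 144 CPM with vehicle and 1071, 1040 and 1268 CPM at 10 µM (log2 fold change 2.93 ± 0.15, adjusted p = 2.4e-11). DNAJA1, an HSP40 partner of HSP70, measured 67.0, 94.5 and 88.8 CPM with vehicle and 406, 457 and 525 CPM at 10 µM (log2 fold change 2.47 ± 0.16, adjusted p = 3.3e-10). In each of these genes the treated libraries lay close together and far above the controls. HSPA1A and HSPA1B, near-identical HSP70 genes whose reads are hard to separate, rose by 3.65 ± 0.23 and 2.13 ± 0.19, DNAJB1 by 2.24 ± 0.15 and CHORDC1, a partner of HSP90, by 1.89 ± 0.10. HSPA8, the constitutive HSP70, rose by 2.02 ± 0.37. The summed level was 3542 to 4163 CPM with vehicle and 9995 to 13588 CPM at 10 µM.

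A heat shock element, searched as 3 alternating GAA and TTC triplets with 2 bases between neighbours on both strands, was present in 3 of 14 promoters of the genes that rose (21.4%) and in 0.487% of all promoters. This motif was chosen after the values were seen. HSPA8 and CHORDC1 are shown because their matches lie just before the start, with 3 matches in the run of capitals of CHORDC1.
HSPA8 (chr11:123062159-123062211, minus strand): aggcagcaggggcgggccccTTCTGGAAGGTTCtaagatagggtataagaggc
CHORDC1 (chr11:90223067-90223129, minus strand): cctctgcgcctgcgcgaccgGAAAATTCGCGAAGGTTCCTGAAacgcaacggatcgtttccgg
In both windows the capitals hold the alternating triplets.

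Among 16 regulators of the integrated stress response 11 rose and 5 fell, with a median log2 fold change of 0.84, and among 21 targets 17 rose and 0 fell, with a median of 1.00. ATF4 itself measured 435, 385 and 382 CPM with vehicle and 558, 571 and 582 CPM at 10 µM (log2 fold change 0.51 ± 0.12, adjusted p = 0.0011). The arms did not overlap, and the change was smaller than those of DDIT3 and TRIB3. DDIT3 (CHOP), a transcription factor of prolonged stress, measured 44.4, 34.3 and 38.0 CPM with vehicle and 126, 162 and 151 CPM at 10 µM (log2 fold change 1.91 ± 0.13, adjusted p = 1.2e-09). TRIB3, a pseudokinase induced by ATF4 and CHOP, measured 66.7, 60.1 and 61.8 CPM with vehicle and 275, 363 and 261 CPM at 10 µM (log2 fold change 2.25 ± 0.13, adjusted p = 7.9e-11). PPP1R15A (GADD34), which directs dephosphorylation of eIF2alpha, rose by 2.03 ± 0.12 and CEBPG, a dimer partner of ATF4, by 1.38 ± 0.12. CEBPB, another partner, fell (log2 fold change -0.58 ± 0.15, adjusted p = 0.0022). Targets with the smallest adjusted p were STC2, a secreted glycoprotein (2.59 ± 0.11), SESN2, an inhibitor of mTORC1 (2.36 ± 0.12), CTH, of cysteine synthesis (2.05 ± 0.14), and MTHFD2, of the mitochondrial folate cycle (1.91 ± 0.13). PHGDH and PSAT1, which begin serine synthesis, rose by 0.89 ± 0.10 and 1.23 ± 0.11. ASNS, asparagine synthetase, rose from only 1.61 to 5.06 CPM (log2 fold change 1.65 ± 0.28, adjusted p = 5.2e-05). GDF15, a secreted stress factor often used as a readout, measured 321, 231 and 322 CPM with vehicle and 322, 362 and 338 CPM at 10 µM and was not called (log2 fold change 0.23 ± 0.12, adjusted p = 0.11).

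Amino acid supply to translation was a further group: of 14 amino acid transporters 10 rose and 1 fell, with a median of 0.80, and of 20 cytosolic tRNA synthetases 14 rose and 2 fell, with a median of 0.54. SLC3A2, the heavy chain shared by several amino acid exchangers, measured 177, 181 and 187 CPM with vehicle and 1082, 1353 and 1232 CPM at 10 µM (log2 fold change 2.75 ± 0.12, adjusted p = 2.7e-12). Its partner light chain SLC7A5 measured 82.3, 70.4 and 81.0 CPM with vehicle and 342, 384 and 386 CPM at 10 µM (log2 fold change 2.25 ± 0.10, adjusted p = 5.5e-12). Neither gene had arms that overlapped. SLC7A11, the cystine exchanger that also pairs with SLC3A2, rose less (0.67 ± 0.12), and SLC7A1 and SLC1A4 rose by 1.49 ± 0.10 and 1.54 ± 0.13. Among synthetases GARS1 rose by 1.81 ± 0.10, TARS1 by 1.76 ± 0.12, WARS1 by 1.59 ± 0.13 and YARS1 by 1.32 ± 0.10. The C/EBP-ATF response element (TGATGNAAN, both strands) was found in 14 of 44 promoters (31.8%) of the regulators, targets, transporters and synthetases that rose, in 0 of 6 of those that fell, in 1 of 8 of those not called (12.5%) and in 3.67% of all 27305 promoters. Windows of CHAC1, a glutathione-degrading enzyme that rose by 1.68 ± 0.13, of ASNS and of ATF3 show the match in capitals.
CHAC1 (chr15:40953241-40953289, plus strand): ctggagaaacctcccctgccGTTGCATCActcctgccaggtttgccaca
ASNS (chr7:97872448-97872496, minus strand): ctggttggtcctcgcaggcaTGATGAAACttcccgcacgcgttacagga
ATF3 (chr1:212565196-212565244, plus strand): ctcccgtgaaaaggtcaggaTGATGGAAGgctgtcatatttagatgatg
ASNS and ATF3 carry the element on the strand of the gene and CHAC1 on the other strand.

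Genes for the machinery that makes and removes protein rose in larger numbers than they fell. Of 75 cytosolic ribosomal protein genes 59 rose and 0 fell (median 0.50), and RPL21 was the strongest of the 4 with the smallest adjusted p (1.64 ± 0.14). Many ribosomal protein genes have processed copies elsewhere in the genome, which makes their counts less certain. Of 77 mitochondrial ribosomal protein genes 50 rose and 5 fell (median 0.54), with 1.94 ± 0.15 for MRPS23 and 1.19 ± 0.09 for MRPS22. The proteasome list held 21 rises and 1 fall among 31 genes (median 0.43), among them PSMD12 (1.23 ± 0.11) and PSMD8 (1.37 ± 0.13), both of the regulatory particle. Of 24 autophagy and lysosome genes 14 rose and 3 fell (median 0.57). MAP1LC3B, the LC3 protein of autophagosome membranes, measured 109.5, 136 and 118 CPM with vehicle and 385, 472 and 408 CPM at 10 µM (log2 fold change 1.80 ± 0.11, adjusted p = 1.5e-10), and the protease CTSL rose by 1.34 ± 0.11. ULK1, the kinase that starts autophagy, fell (log2 fold change -1.498 ± 0.12, adjusted p = 8.8e-09). The medians of these 4 lists correspond to changes of less than 2-fold.

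**Figure D3:**
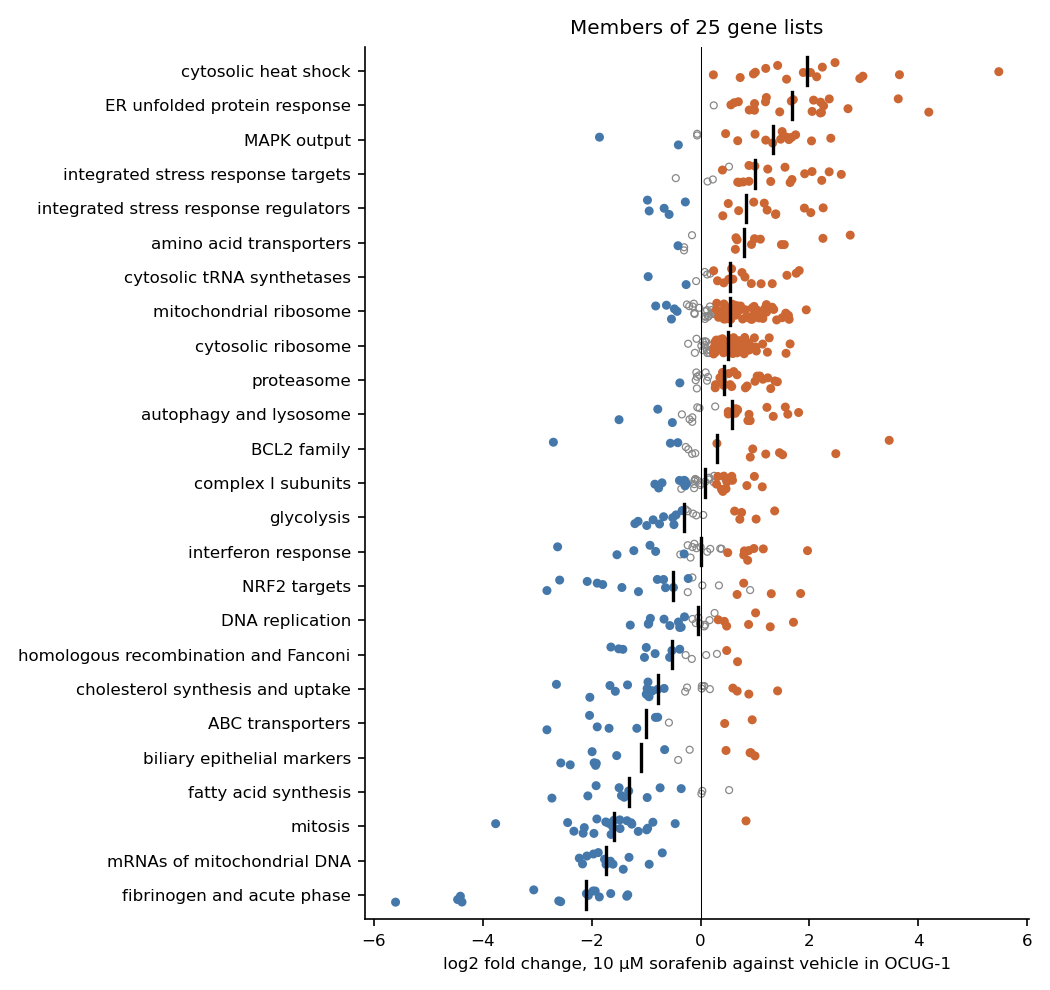
Log2 fold changes, 10 µM against vehicle (x axis), of the tested members of 25 gene lists (rows); filled points were called at an adjusted p under 0.05, orange for higher and blue for lower, open points were not called, and black bars mark the median of each list. Heat shock and ER stress members lie to the right of 0, while all 13 mitochondrial mRNAs and all 15 fibrinogen and acute phase genes lie to the left.

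All 13 mRNAs encoded by mitochondrial DNA fell, with a median log2 fold change of -1.74. Over all 30 tested genes of the mitochondrial genome, 23 were called lower and 2 higher (median -1.53). MT-CO1, a subunit of complex IV, measured 32210, 29140 and 30250 CPM with vehicle and 10620, 9702 and 9723 CPM at 10 µM (log2 fold change -1.61 ± 0.14, adjusted p = 1.2e-08). MT-CO3 measured 11760, 11840 and 12040 CPM with vehicle and 3379, 2739 and 2995 CPM at 10 µM (log2 fold change -1.97 ± 0.13, adjusted p = 4.1e-10). MT-CYB, of complex III, measured 9052, 7837 and 8559 CPM with vehicle and 2104, 1912 and 1968 CPM at 10 µM (log2 fold change -2.09 ± 0.16, adjusted p = 2.2e-09). In each of the 3 the lowest vehicle library held more than the highest treated one. The falls ranged from -0.70 ± 0.18 for MT-ND1 and -0.94 ± 0.15 for MT-ND4L to -2.17 ± 0.15 for MT-CO2 and -2.23 ± 0.20 for MT-ND3. MT-ND6, read from the other strand of the mitochondrial genome, fell as well (log2 fold change -1.88 ± 0.21, adjusted p = 2.0e-06). The summed level of the 13 mRNAs was 98498 to 119486 CPM with vehicle and 31986 to 37527 CPM at 10 µM. The whole mitochondrial genome fell less in proportion, from 11.1% to 13.6% of the counts with vehicle to 5.65% to 6.25% at 10 µM. Its summed counts outside the mRNAs, where the 2 higher genes lie, thus did not fall with them.

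**Figure D4:**
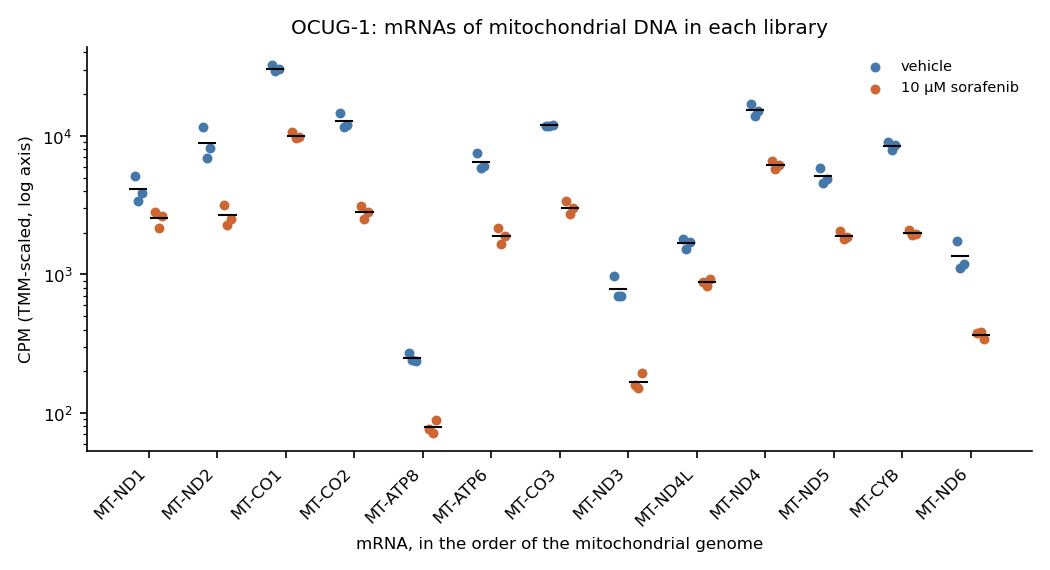
CPM (TMM-scaled, log axis) of the 13 mRNAs of mitochondrial DNA, in genome order (x axis), in the 3 vehicle libraries (blue) and the 3 libraries at 10 µM (orange), with a black line at each mean. In every mRNA the orange points lie below the blue points, and the gap is narrowest for MT-ND1.

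Respiratory chain subunits encoded in the nucleus did not move as a block. Of 37 complex I subunits 13 rose and 8 fell (median 0.09), of 25 subunits of complexes II to IV 9 rose and 2 fell (median 0.10), and of 17 ATP synthase subunits 5 rose and 3 fell (median -0.03). The share called up in complex I, 13 of 37, is near the 32.4% of all genes. Complex I falls numbered 5 without vehicle replicate 1, without 10 µM replicate 1 or 2 or with no low-count filter, and ATP synthase rises 3 without vehicle replicate 1 or 10 µM replicate 3. NDUFS8, an iron-sulphur subunit of complex I, fell (log2 fold change -0.71 ± 0.10, adjusted p = 6.8e-06), while NDUFAB1, the mitochondrial acyl carrier protein, rose (log2 fold change 0.99 ± 0.13, adjusted p = 3.5e-06). NDUFA4 rose by 0.52 ± 0.11. Cytochrome c, CYCS, measured 209.8, 272 and 258 CPM with vehicle and 627, 669 and 609.5 CPM at 10 µM (log2 fold change 1.36 ± 0.11, adjusted p = 9.5e-09), and the succinate dehydrogenase subunit SDHB rose by 1.28 ± 0.16. Of 15 mitochondrial chaperones and proteases 9 rose and 2 fell (median 0.63). GRPEL1, the exchange factor of mitochondrial HSP70, measured 28.5, 27.0 and 28.6 CPM with vehicle and 85.2, 109.7 and 95.0 CPM at 10 µM (log2 fold change 1.79 ± 0.11, adjusted p = 1.5e-10). HSPA9 and HSPD1, the mitochondrial HSP70 and HSP60, rose by 1.38 ± 0.10 and 1.41 ± 0.12.

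Of 20 glycolysis genes 5 rose and 10 fell (median -0.31). The neuronal-type enolase ENO2 (log2 fold change -1.21 ± 0.13, adjusted p = 2.0e-07), the lactate exporter SLC16A3 (log2 fold change -1.15 ± 0.11, adjusted p = 6.4e-08) and the phosphofructokinase PFKL (log2 fold change -0.99 ± 0.12, adjusted p = 1.4e-06) fell. In contrast the glucose transporter SLC2A1 rose by 1.02 ± 0.16 and hexokinase HK2 by 0.75 ± 0.13. In the TCA cycle and pyruvate entry list 12 of 25 rose and 6 fell (median 0.26): PDK4, which switches off pyruvate dehydrogenase, rose (log2 fold change 1.88 ± 0.20, adjusted p = 1.9e-07), and pyruvate carboxylase PC fell (log2 fold change -1.70 ± 0.15, adjusted p = 2.5e-08). Hypoxia-inducible genes outside glycolysis were divided as well, with 12 of 19 higher and 5 lower (median 0.65), or 3 lower without vehicle replicate 3 or 10 µM replicate 2. ANGPTL4 measured 4.07, 3.79 and 3.34 CPM with vehicle and 139.5, 163 and 110.5 CPM at 10 µM (log2 fold change 5.202 ± 0.18, adjusted p = 2.8e-13), NDRG1 rose by 2.24 ± 0.14, and the carbonic anhydrase CA12 fell (log2 fold change -1.44 ± 0.13, adjusted p = 2.8e-08). Of 6 genes of glucose sensing by MondoA 3 rose and 2 fell. MLXIPL (ChREBP), the lipogenic glucose sensor, measured 36.5, 27.7 and 32.3 CPM with vehicle and 2.80, 2.95 and 4.25 CPM at 10 µM (log2 fold change -3.29 ± 0.21, adjusted p = 2.5e-10), ARRDC4 rose by 1.49 ± 0.15, and TXNIP, which shares its regulation, missed the threshold (log2 fold change -0.53 ± 0.22, adjusted p = 0.053). It was called lower in 6 of 13 alternatives: with DESeq2 (-0.51), scaling by library size (-0.51), no low-count filter (-0.52) or a minimum count of 30 (-0.54), and without vehicle replicate 3 (-0.66) or 10 µM replicate 3 (-0.74).

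Lipid synthesis genes were lower at 10 µM. Of 13 fatty acid synthesis genes 10 fell and 0 rose (median -1.32; 1 rose without vehicle replicate 2), and of 25 genes of cholesterol synthesis and uptake 14 fell and 4 rose (median -0.79). SREBF1, the transcription factor of fatty acid synthesis, measured 519.6, 438 and 449.6 CPM with vehicle and 77.0, 50.4 and 84.7 CPM at 10 µM (log2 fold change -2.73 ± 0.16, adjusted p = 1.2e-10). Fatty acid synthase, FASN, measured 846, 688 and 712 CPM with vehicle and 194, 137 and 203 CPM at 10 µM (log2 fold change -2.07 ± 0.15, adjusted p = 1.6e-09). Lanosterol synthase, LSS, measured 248, 206 and 215 CPM with vehicle and 36.6, 30.04 and 40.2 CPM at 10 µM (log2 fold change -2.65 ± 0.12, adjusted p = 5.5e-12). Controls of all 3 genes lay well above the treated libraries. ACACA, the first committed step of fatty acid synthesis, fell by 1.45 and ELOVL6, an elongase, by 1.40 on the log2 scale. SREBF2, the transcription factor of cholesterol synthesis, fell (log2 fold change -1.66 ± 0.10, adjusted p = 2.6e-10), as did TM7SF2 (-2.03 ± 0.12). HMGCS1, an early enzyme of that pathway, was not called (log2 fold change 0.07 ± 0.17, adjusted p = 0.75). Among 19 genes of fatty acid oxidation 9 fell and 3 rose (median -0.33), with ACADVL at -1.20 ± 0.12 and ETFB at -1.09 ± 0.12. Of 6 genes of cholesterol export 5 fell and 1 rose: the exporters ABCA1 (-1.68 ± 0.13) and ABCG1 (-1.49 ± 0.14) and the receptor NR1H3 (-1.79 ± 0.15) were lower, and MYLIP, a ubiquitin ligase, was higher (1.23 ± 0.15).

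Of 23 genes of mitosis 22 fell and 1 rose, with a median log2 fold change of -1.59. KIF20A, a kinesin of cytokinesis, measured 235, 203 and 184 CPM with vehicle and 16.9, 11.3 and 17.6 CPM at 10 µM (log2 fold change -3.77 ± 0.16, adjusted p = 3.0e-12). CENPF, of the kinetochore, measured 493, 504 and 455 CPM with vehicle and 106, 85.5 and 97.4 CPM at 10 µM (log2 fold change -2.33 ± 0.10, adjusted p = 3.7e-12). TOP2A, which untangles chromosomes, measured 537, 616 and 559.5 CPM with vehicle and 137, 104 and 143 CPM at 10 µM (log2 fold change -2.16 ± 0.12, adjusted p = 7.4e-11). MKI67, the proliferation antigen Ki-67, measured 249.6, 229 and 215 CPM with vehicle and 77.8, 71.0 and 77.6 CPM at 10 µM (log2 fold change -1.62 ± 0.10, adjusted p = 2.8e-10). In all 4 genes every treated library lay below every control. CENPE fell by 2.44, cyclin B1 (CCNB1) by 1.91 and PLK1 by 1.48 on the log2 scale. The exception was the spindle checkpoint gene MAD2L1, which rose (log2 fold change 0.84 ± 0.30, adjusted p = 0.029). That call was lost without vehicle replicate 1 (0.60) or 3 (0.79), without 10 µM replicate 1 (0.80) or 3 (0.73), and with no low-count filter (0.84). MAD2L1 also carries the motif described next. The cell cycle homology region (TTTGAA, both strands) was found in 13 of 19 promoters of the mitosis genes that fell (68.4%), in the 1 promoter of a gene that rose and in 15.4% of all promoters. PLK1, CCNB2, KIF23 and KIF11 are shown because the match lies shortly before the start.
PLK1 (chr16:23678840-23678885, plus strand): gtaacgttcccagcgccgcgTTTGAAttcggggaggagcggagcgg
CCNB2 (chr15:59105097-59105142, plus strand): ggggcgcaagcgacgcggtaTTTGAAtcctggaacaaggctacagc
KIF23 (chr15:69414274-69414319, plus strand): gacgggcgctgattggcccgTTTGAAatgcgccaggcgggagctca
KIF11 (chr10:92593082-92593127, plus strand): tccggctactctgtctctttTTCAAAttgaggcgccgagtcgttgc
So short a motif occurs often, as the share in all promoters shows. KIF23, CCNB2 and KIF11 fell by 1.69, 1.14 and 1.35 on the log2 scale.

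DNA replication genes were divided: of 25, 7 rose and 10 fell (median -0.04). TK1, a thymidine kinase of S phase, measured 209.7, 201 and 197 CPM with vehicle and 79.5, 78.8 and 90.2 CPM at 10 µM (log2 fold change -1.29 ± 0.09, adjusted p = 1.3e-09), whereas CDC6, which loads the MCM helicase in G1, measured 89.3, 93.0 and 83.4 CPM with vehicle and 264, 320.0 and 284 CPM at 10 µM (log2 fold change 1.71 ± 0.13, adjusted p = 1.8e-09). The arms of both genes were separate, in opposite directions. MCM5 (-0.92 ± 0.10) and POLA1 (-0.95 ± 0.11) fell, and cyclin E2 (CCNE2) rose by 1.28 ± 0.21. Of 15 genes of homologous recombination and the Fanconi pathway 9 fell and 2 rose (median -0.53), among them FANCD2 (-1.65 ± 0.11) and FANCI (-1.504 ± 0.12). Of 20 histone genes 5 rose and 8 fell, and most histone mRNAs lack the poly(A) tail that an mRNA library selects. Among 16 G1 cyclins, CDKs and inhibitors 8 rose and 3 fell. CCND1 measured 47.8, 47.1 and 44.9 CPM with vehicle and 77.6, 73.8 and 73.1 CPM at 10 µM (log2 fold change 0.68 ± 0.11, adjusted p = 2.0e-05), CDK6 rose by 1.55 ± 0.14 and CDKN1A (p21) by 0.74 ± 0.14, and CDKN2C fell (-1.56 ± 0.18). The p53 targets held 5 rises and 8 falls among 20 (median -0.11): SESN2 and AEN (1.48 ± 0.16) rose, and TP53INP1 (-2.02 ± 0.15) and DDB2 (-1.27 ± 0.10) fell.

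Genes that report activity of the MAPK pathway, the pathway downstream of RAF, were mostly higher at 10 µM: 13 of 17 rose and 2 fell, with a median of 1.32. ETV5, an ETS factor induced by ERK, measured 13.6, 13.8 and 15.4 CPM with vehicle and 72.3, 76.5 and 76.3 CPM at 10 µM (log2 fold change 2.39 ± 0.11, adjusted p = 9.3e-12). FOSL1, an AP-1 subunit stabilised by ERK, measured 97.1, 76.9 and 97.0 CPM with vehicle and 342, 443 and 328 CPM at 10 µM (log2 fold change 2.04 ± 0.14, adjusted p = 6.7e-10). SPRY2, a feedback inhibitor, measured 8.89, 10.4 and 8.35 CPM with vehicle and 30.2, 31.3 and 31.1 CPM at 10 µM (log2 fold change 1.75 ± 0.15, adjusted p = 1.0e-08). All 3 genes were above every control in every treated library. SPRY4 (1.67 ± 0.17), PHLDA1 (1.62 ± 0.09) and the ERK phosphatase gene DUSP5 (1.32 ± 0.15) also rose. DUSP6, a common readout of ERK, was not called (log2 fold change -0.06 ± 0.17, adjusted p = 0.77), nor was DUSP4 (log2 fold change -0.06 ± 0.17, adjusted p = 0.76), and EGR1, an immediate-early gene, fell (log2 fold change -1.86 ± 0.21, adjusted p = 2.6e-06). Of 16 AP-1 and immediate-early genes 6 rose and 8 fell (median -0.40): MAFF and KLF6 rose by 1.40 ± 0.12 and 0.80 ± 0.09, and JUND fell by 1.98 on the log2 scale. Among 13 receptors and ligands of the ERBB and MET group 6 rose and 3 fell. HBEGF measured 6.17, 7.05 and 7.21 CPM with vehicle and 174, 119 and 231 CPM at 10 µM (log2 fold change 4.68 ± 0.29, adjusted p = 1.1e-08), the feedback inhibitor ERRFI1 rose by 0.98 ± 0.11, and the receptor ERBB3 (-2.23 ± 0.17) and the ligand EGF (-2.36 ± 0.17) fell. Of 13 kinases that sorafenib is known to bind, 6 passed the filter on low counts. DDR2 (1.98 ± 0.30) and BRAF (0.46 ± 0.11) rose, and PDGFRB (-2.01 ± 0.24) and ARAF (-0.61 ± 0.10) fell, with vehicle levels of DDR2 and PDGFRB under 10 CPM.

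Of 15 BCL2 family genes 8 rose and 3 fell (median 0.30). PMAIP1 (NOXA), a pro-apoptotic member that neutralises MCL1, measured 73.2, 92.3 and 81.6 CPM with vehicle and 478, 436 and 470.2 CPM at 10 µM (log2 fold change 2.49 ± 0.12, adjusted p = 1.3e-11). BCL2L1 (BCL-XL), which protects cells, went from 30.2 to 85.9 CPM (log2 fold change 1.51 ± 0.11, adjusted p = 2.2e-09), and the effector BAK1 rose by 1.45 ± 0.15. Promoters and inhibitors of apoptosis stood on both sides, and the pro-apoptotic BMF fell (log2 fold change -2.70 ± 0.37, adjusted p = 6.7e-05). Of 14 genes of TRAIL and death receptor signalling 7 rose and 5 fell. TNFRSF10D, a decoy receptor for TRAIL, measured 15.6, 12.8 and 16.6 CPM with vehicle and 99.2, 148 and 145 CPM at 10 µM (log2 fold change 3.12 ± 0.21, adjusted p = 4.3e-09), the signalling receptor TNFRSF10A rose by 2.02 ± 0.15 and TNFRSF12A by 1.85 ± 0.13. Of 21 NRF2 targets 12 fell and 4 rose (median -0.50). Transketolase, TKT, measured 2052, 1930 and 1725 CPM with vehicle and 460.5, 326 and 562 CPM at 10 µM (log2 fold change -2.08 ± 0.15, adjusted p = 1.9e-09), NQO1 fell by 0.79, and OSGIN1 rose by 1.84 ± 0.14. HMOX1 was not called (log2 fold change -0.15 ± 0.10, adjusted p = 0.21). Of 16 ferroptosis and iron genes 7 rose and 4 fell, with ferritin light chain FTL lower (-0.64 ± 0.10) and the ferritinophagy receptor NCOA4 higher (1.00 ± 0.15). All 4 metallothioneins tested of 7 listed rose (median 1.82). MT2A, the abundant metallothionein, measured 66.9, 71.6 and 69.8 CPM with vehicle and 252, 285 and 254 CPM at 10 µM (log2 fold change 1.93 ± 0.14, adjusted p = 1.6e-09), and MT1E, MT1X and MT1F stayed under 10 CPM. The call of MT1F (0.71) was lost in 4 of 6 fits that left out a library: without vehicle replicate 2 (0.59) or 3 (0.61) or 10 µM replicate 1 (0.71) or 2 (0.57). With no low-count filter (0.72) and in a fit of the compared groups alone (0.71) it was lost as well.

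Interferon-stimulated genes gave 8 rises and 6 falls among 25 (median 0.00), shares close to or below those of all genes. MX1 (0.89 ± 0.12) and OAS1 (0.87 ± 0.10) rose, STAT2 (-1.54 ± 0.10) and IFI44L (-2.63 ± 0.26) fell, and ISG15 was not called (log2 fold change -0.07 ± 0.12, adjusted p = 0.61). MHC class I presentation was evenly divided, with 5 rises (3 without 10 µM replicate 3) and 5 falls among 14, TAP1 higher (0.95 ± 0.15) and HLA-F lower (-0.98 ± 0.14). Of 20 NF-kB cytokines and targets 8 rose and 4 fell. TNFAIP3 (A20), an inhibitor of NF-kB, rose by 1.49 ± 0.11, the chemokine CXCL3 by 2.44 ± 0.18 and IL1A by 2.32 ± 0.18, while the inhibitor NFKBIA fell (-1.17 ± 0.14). The list of fibrinogen, complement and acute phase genes was uniform: 15 of 15 tested fell and 0 rose, with a median of -2.10. Of 20 listed, 5 did not pass the filter on low counts. FGG, the gamma chain of fibrinogen, measured 267, 489 and 372 CPM with vehicle and 40.1, 39.0 and 56.0 CPM at 10 µM (log2 fold change -3.07 ± 0.27, adjusted p = 6.6e-07), and CFI, complement factor I, measured 48.7, 48.0 and 49.1 CPM with vehicle and 7.80, 8.57 and 8.16 CPM at 10 µM (log2 fold change -2.57 ± 0.16, adjusted p = 2.7e-10). The 3 fibrinogen chains, which form 1 protein and lie side by side on chromosome 4, fell together. In 5 of 6 fits that left out a library, 1 member of the list was called higher, and at most 2 were in any of 13 alternatives. The summed level of the list was 2176 to 2375 CPM with vehicle and 394 to 597 CPM at 10 µM.

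The label was checked against biliary epithelial markers. Of 14 markers 11 had a mean of at least 10 CPM over the 6 libraries, and KRT8, KRT18 and KRT19 were abundant. KRT8 measured 3652, 3079 and 3197 CPM with vehicle and 909, 701 and 949.8 CPM at 10 µM (log2 fold change -1.96 ± 0.13, adjusted p = 8.5e-10). KRT19 measured 685, 608 and 597 CPM with vehicle and 168, 142 and 190.1 CPM at 10 µM (log2 fold change -1.92 ± 0.12, adjusted p = 2.5e-10). Both keratins, with KRT18 (-1.99 ± 0.13), fell, and treated libraries never reached the vehicle range. Over the markers 8 fell and 4 rose (median -1.10). KRT7, a biliary keratin, measured 8.83, 6.44 and 10.6 CPM with vehicle and 11.5, 13.2 and 11.2 CPM at 10 µM (log2 fold change 0.47 ± 0.18, adjusted p = 0.032), and the call was lost without vehicle replicate 1 (0.48) or 2 (0.29) or 10 µM replicate 2 (0.39). SOX9, a transcription factor of bile ducts, rose by 1.00 ± 0.12. Of 10 keratins tested 3 rose and 4 fell, with 1 rise without vehicle replicate 1 or 2 or 10 µM replicate 2, and the falls included KRT17 (-2.66 ± 0.19). Mucins were divided, with 4 of 10 higher and 4 lower, MUC6 (-2.94 ± 0.24) and MUC1 (-1.93 ± 0.17) falling and MUC20 rising (2.65 ± 0.28). Of 16 claudins and tight junction genes 8 fell and 5 rose, with CLDN2 at -2.54 ± 0.19. Just 6 of 14 listed SPRR and cornified envelope genes were tested, and 2 rose and 3 fell, or 1 fell without 10 µM replicate 2.

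Of 14 genes of epithelial-mesenchymal transition 7 rose and 4 fell (median 0.16). SNAI1 (Snail), a repressor of E-cadherin, measured 7.65, 9.27 and 8.23 CPM with vehicle and 136, 63.8 and 179 CPM at 10 µM (log2 fold change 3.91 ± 0.41, adjusted p = 1.1e-05). Its treated values were widely spread and lay above every control. ZEB1 rose by 1.01 ± 0.12, while fibronectin, FN1, a mesenchymal marker, fell (log2 fold change -1.78 ± 0.15, adjusted p = 1.2e-08). Both directions occurred within the list. Integrins were divided, with 4 of 13 higher and 4 lower, or 2 lower without vehicle replicate 2 or with no low-count filter. ITGA2, of the collagen receptor, measured 12.7, 21.2 and 19.8 CPM with vehicle and 156, 162 and 123 CPM at 10 µM (log2 fold change 3.04 ± 0.25, adjusted p = 2.2e-07), and ITGB4 fell (-1.65 ± 0.18). Of 17 genes of matrix metalloproteinases and plasminogen activation 9 rose and 4 fell. MMP1, an interstitial collagenase, measured 159, 238 and 206 CPM with vehicle and 1755, 1616 and 1825 CPM at 10 µM (log2 fold change 3.11 ± 0.17, adjusted p = 1.1e-10), and PLAT, the tissue plasminogen activator, measured 647, 653 and 628 CPM with vehicle and 134, 83.2 and 115 CPM at 10 µM (log2 fold change -2.54 ± 0.16, adjusted p = 5.2e-10). Of 15 lineage transcription factors 7 rose and 7 fell. EHF, an epithelial ETS factor, measured 47.6, 53.1 and 47.3 CPM with vehicle and 5.16, 5.09 and 6.63 CPM at 10 µM (log2 fold change -3.14 ± 0.15, adjusted p = 1.4e-11), and ONECUT2 fell by 1.61 on the log2 scale. Of 10 ABC transporters 7 fell and 2 rose. ABCC2, the canalicular export pump, measured 665, 609.7 and 707 CPM with vehicle and 105, 69.0 and 106 CPM at 10 µM (log2 fold change -2.82 ± 0.16, adjusted p = 1.3e-10), and ABCC3 fell as well (-1.90 ± 0.15).

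Markers of other cell types were measured in the same libraries. Hepatocyte markers summed to 113 to 139.7 CPM with vehicle and 16.6 to 19.5 CPM at 10 µM. FGB, the fibrinogen chain described above, made up 100.3 to 130.2 CPM and 4.78 to 5.83 CPM of these sums. The 5 other tested markers summed to 9.004 to 12.4 CPM with vehicle and 11.9 to 14.2 CPM at 10 µM, ranges that overlap, and APOB had no count in any of the 6 libraries. Of the 6 tested, 2 rose and 3 fell, with ALB at 11 counts over the vehicle libraries and 154 at 10 µM. Fibroblast markers summed to 173 to 193 CPM with vehicle and 78.8 to 121 CPM at 10 µM, and 3 of 7 tested fell, COL1A1 among them (-1.64 ± 0.13). Endothelial markers summed to 4.82 to 6.86 CPM and 3.04 to 3.70 CPM, and immune markers to 4.94 to 6.74 CPM and 5.31 to 8.67 CPM. No tested member of either list had a mean of 10 CPM over the 6 libraries. Of 3 tested endothelial markers 1 rose and 1 fell, and of 5 tested immune markers 1 rose and 1 fell. The endothelial rise was lost without vehicle replicate 3 or 10 µM replicate 1, and the immune fall without vehicle replicate 2 or 10 µM replicate 1 or 3. The B-cell marker MS4A1 had no count in these libraries. The part of these markers in the results was not tested.

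The direct comparison of doses asked how 10 µM differed from 1.25 µM in the same line. Of 20511 genes 12414 were called (60.5%), 6472 higher at 10 µM (31.6%) and 5942 lower (29.0%). HSPA5 had means of 721 ± 67.1 CPM with vehicle, 1256 ± 107 at 1.25 µM and 4716 ± 668 at 10 µM (SD, n = 3), and the doses differed (log2 fold change 1.91 ± 0.16, adjusted p = 9.0e-09). ETV5 had means of 14.3 ± 1.02, 44.1 ± 5.24 and 75.0 ± 2.36 CPM, with a smaller step between doses (log2 fold change 0.77 ± 0.10, adjusted p = 4.9e-06). MKI67 had means of 231 ± 17.4, 199 ± 19.5 and 75.4 ± 3.88 CPM (log2 fold change -1.40 ± 0.10, adjusted p = 2.3e-09). Values of these 3 genes lay at 1.25 µM between those of the other arms. KRT8 was different, with 3309 ± 303, 4374 ± 606 and 853 ± 133 CPM, the highest mean being that of the low dose (log2 fold change -2.36 ± 0.14, adjusted p = 1.6e-10). The largest differences upward among the genes eligible by the naming rule were those of HSPA6, GPA33, SPRR2D, NHLH1 and SLC2A9, and downward those of CYP4F8, PRSS2 (-4.57), CARNS1, PIF1 and CYP4F12. By list, 22 of 23 mitosis genes and all 13 mitochondrial mRNAs were lower at 10 µM than at 1.25 µM, and 19 of 22 ER stress genes and 15 of 16 heat shock genes were higher. Nuclear respiratory genes were lower than at 1.25 µM in 16 of 37 (complex I), 13 of 25 (complexes II to IV) and 10 of 17 cases (ATP synthase), and higher in 4, 4 and 0. At 1.25 µM against vehicle, 16, 15 and 4 genes of these lists were higher and 0 lower, with medians of 0.34, 0.42 and 0.29. Their medians at 10 µM against vehicle were near 0, as given above. In fatty acid synthesis 12 of 13 genes were lower and 0 higher. PRSS2, a trypsinogen, has close copies.

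The 10 µM arm was also set against the combination, which holds less sorafenib and adds a complex I inhibitor, so dose and second drug differ together. Here 1077 of 20511 genes were called (5.25%), 426 higher at 10 µM (2.08%) and 651 lower (3.17%). The count rests on single libraries: it was 197 without combination replicate 3, 336 without 10 µM replicate 3, 479 without combination replicate 2 and 688 without 10 µM replicate 1. With DESeq2, 872 genes were higher and 868 lower. Of 16 heat shock genes 8 were higher at 10 µM and 0 lower, with BAG3 at 845 ± 125 CPM against 552 ± 84.4 in the combination (log2 fold change 0.61 ± 0.12, adjusted p = 0.0087) and HSPH1 at 1126 ± 123 against 721 ± 88.4 (log2 fold change 0.64 ± 0.14, adjusted p = 0.013). Of 22 ER stress genes 2 were higher and 0 lower, DNAJB11 among them (0.60 ± 0.12). The heat shock count was 0 without combination replicate 3, 2 without 10 µM replicate 3, 3 without 10 µM replicate 1 or combination replicate 2 and 12 without combination replicate 1. It was 2 in a fit of these groups alone, 4 with the replicate block and 5 with scaling by library size, and BAG3 and HSPH1 lost their call without combination replicate 3 (0.52 and 0.57). The ER stress count was 14 without combination replicate 1, 0 without combination replicate 3, 3 without 10 µM replicate 1 and 1 without any of the other libraries. It was 11 with no low-count filter and 9 with DESeq2. In mitosis 0 of 23 genes were called in either direction, and 1 of 13 mitochondrial mRNAs was lower at 10 µM, MT-CO2 (log2 fold change -0.65 ± 0.14, adjusted p = 0.013), a call lost without 10 µM replicate 3 (-0.62) or combination replicate 2 (-0.49). For mitosis edgeR gave 9 of 23 at an unadjusted p under 0.05 and DESeq2 called 5, and edgeR called 7 without 10 µM replicate 2, 2 without combination replicate 1 and 3 with no low-count filter. PMAIP1 was higher at 10 µM (0.60 ± 0.11), but not called without combination replicate 3 (0.54), which also holds for DNAJB11 (0.52), DUSP6 (-0.82), CCL2 (1.48) and TENT5C (1.18). DUSP6 (-0.74), TENT5C (1.06) and HSPH1 (0.58) also lost their call without 10 µM replicate 3. GDF15 was lower, with 341 ± 20.4 against 695 ± 69.0 CPM (log2 fold change -1.03 ± 0.12, adjusted p = 1.8e-04), as were STC2 (-0.67 ± 0.10), SLC7A5 (-0.54 ± 0.10), MMP1 (-0.96 ± 0.16) and DUSP6 (-0.88 ± 0.18). Among the genes eligible by the naming rule (called protein-coding genes whose libraries do not overlap and whose mean reaches 10 CPM at 10 µM or in the combination), the 5 largest differences downward were those of CYP1A1 (-3.06), VIPR1 (-1.62), MLPH (-1.47), IGFBP1 (-1.40) and DRAXIN (-1.37), and upward those of the chemokine CCL2 (1.65), PIK3IP1 (1.34), TENT5C (1.335), CX3CL1 (1.32) and the interferon-inducible GBP1 (1.32). In a fit of these groups alone CCL2 (1.65) and PIK3IP1 (1.34) lost their call, and CCL2 lost it with no low-count filter (1.65). HSPA6 measured 716 ± 324 and 308 ± 107 CPM and was not called (log2 fold change 1.22 ± 0.35, adjusted p = 0.071), except without 10 µM replicate 2 (1.53), with DESeq2 (1.25) or at a minimum count of 30 (1.22).

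The response to 10 µM was compared with that of HuCCT1 in a fit of 24 libraries, with the difference between lines as an interaction term. Of 22944 genes 10047 differed (43.8%), 4742 toward higher values in OCUG-1 (20.7%) and 5305 toward lower ones (23.1%). Within HuCCT1 the same dose gave 4871 calls (21.2%), 2641 higher (11.5%) and 2230 lower (9.72%). OCUG-1 values are from the fit of that line alone, so an interaction can depart slightly from the difference of the values printed. Line and culture medium differ together and cannot be told apart, and each line is a single case. Mitosis genes moved in opposite directions: in HuCCT1 22 of 23 rose and 0 fell, in OCUG-1 22 fell, and the difference was called for 22. TOP2A had a log2 fold change of -2.16 ± 0.12 in OCUG-1 and 1.46 ± 0.16 in HuCCT1, an interaction of -3.69 ± 0.23 (adjusted p = 5.3e-13). Heat shock genes differed in 15 of 16 cases, all toward OCUG-1, and in HuCCT1 0 rose and 4 fell. For HSPH1 the values were 2.93 ± 0.15 and -0.43 ± 0.14 (adjusted p of the difference = 3.7e-13). ER stress genes differed in 19 of 22 cases, again all toward OCUG-1, and mitochondrial mRNAs in 11 of 13, all toward lower values in OCUG-1. Interferon-stimulated genes fell in 25 of 28 cases in HuCCT1, rose in 0, and the difference was called in 20 cases toward OCUG-1 and in 2 the other way. MX1 had 0.89 ± 0.12 in OCUG-1 and -1.83 ± 0.21 in HuCCT1. FGA, which fell in OCUG-1, had 0.35 ± 0.45 in HuCCT1 and was not called there. Some of the largest differences by the naming rule (GPA33, KRT34, NRIP3, NDRG2 and PALMD) rest on 3 counts or fewer in an arm of 1 line, and no value is given for them.

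**Figure D5:**
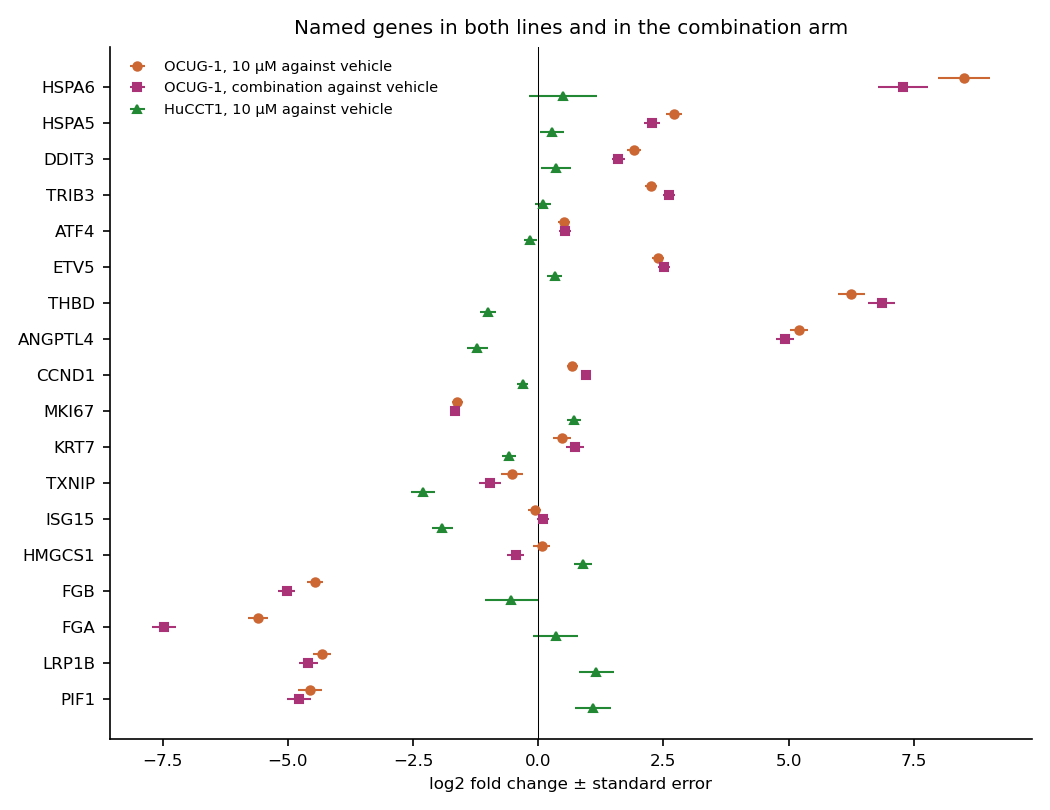
Log2 fold change ± standard error (x axis) of 18 named genes (rows) for 10 µM sorafenib against vehicle in OCUG-1 (orange circles), the combination against vehicle in OCUG-1 (purple squares, the same vehicle libraries) and 10 µM sorafenib against vehicle in HuCCT1 (green triangles). The orange and green values of each gene differ at an adjusted p under 0.05 of the line difference, for example -1.62 and 0.72 for MKI67.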

How the data were processed

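RNA from 12 OCUG-1 libraries was sequenced as TruSeq mRNA libraries on a NovaSeq, per the labels' protocols. The values deposited by the authors are raw counts per Ensembl gene. Per the submitters' processing notes they used fastp 1.3.2, HISAT2 2.2.2, GRCh38 and featureCounts of Subread 2.1.1. MultiQC 1.33, R 4.4.1 and DESeq2 1.42.1 are also named there. No source used here gives the annotation, the strand setting or the handling of multi-mapped reads, so overlapping antisense genes and near-identical copies cannot be told apart.

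Samples were grouped by the labels. The test was that of edgeR 4.0.16 (R 4.3.3) on the counts: TMM factors, filterByExpr with a minimum count of 10, and robust quasi-likelihood fits on the 12 OCUG-1 libraries, which share 1 estimate of spread. The difference between lines came from a fit of 24 libraries. Tests were two-sided with Benjamini-Hochberg adjustment at 0.05. Alternatives were other scalings, other filters, a replicate block, DESeq2 1.42.0, a fit of the compared groups alone, and leaving out each library in turn. The scripts were tested on simulated data in which only a small share of genes changed. Scaling and calls where most genes move, as here, were not tested that way.

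Of 78724 gene IDs 61481 matched the name table and 57302 were in GENCODE 29, the source of coordinates, class, length and GC content. Promoters are from RefSeq. Motifs searched but not shown follow, as promoters of members that rose, fell and were not called, then the share of all promoters. In DNA replication genes the E2F element was in 0 of 6, 4 of 9, 3 of 7 and 1.66%. In NRF2 targets the antioxidant response element was in 0 of 3, 2 of 9, 2 of 3 and 13.6%. In interferon-stimulated genes the interferon-stimulated response element was in 3 of 6, 4 of 6, 4 of 6 and 3.65%. Precision is set by 16295146 to 24019011 counts per library and 3 libraries an arm.

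The comparison, lists and motifs were chosen with earlier results of these data known. Named genes were the 15 largest rises and falls among called protein-coding genes whose higher arm averaged 10 CPM or more and whose arms do not overlap, up to 4 called genes per list by smallest adjusted p, a panel of 20 genes, and the 5 largest differences each way in the other comparisons. Genes named outside this rule, and the heat shock element, were chosen after their values were seen. Some items are not reported here.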

Additional observations from a re-analysis of the deposited data

Results flagged for a closer look

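The response to 10 µM sorafenib differed between OCUG-1 and HuCCT1, by the interaction test, for 18 genes of a panel and of the largest line differences with more than 3 counts in every arm. Genes of the second kind were picked by size among those called, and 43.8% of all genes were called. Each value is the log2 fold change in OCUG-1 minus that in HuCCT1, with an adjusted p under 0.05. Toward higher values in OCUG-1 the differences were 7.94 for HSPA6, 7.18 for THBD, 6.35 for ANGPTL4, 2.00 for ETV5, 2.08 for TRIB3, 1.48 for DDIT3, 2.36 for HSPA5, 0.60 for ATF4, 0.92 for CCND1, 1.71 for TXNIP, 1.77 for ISG15 and 0.98 for KRT7. Toward lower values in OCUG-1 they were -6.03 for FGA, -5.73 for PIF1, -4.00 for FGB, -5.55 for LRP1B, -2.40 for MKI67 and -0.89 for HMGCS1. ASNS, GDF15, DUSP6, CDKN1A, NDUFA4 and HMOX1 of the panel were not called for the line difference in the main fit. Each was called under some alternative, for example GDF15 without HuCCT1 10 µM replicate 3 (1.32, and 0.32 in the main fit). For ISG15, TXNIP and HMGCS1 the OCUG-1 value itself was not called (TXNIP was in 6 of 13 alternatives, with DESeq2 at -0.51), while HuCCT1 had called changes of -1.91, -2.30 and 0.89. The lines were grown in different media, which cannot be told apart from the lines.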

How the results depend on the processing

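Over 13 alternatives the number of genes called at 10 µM against vehicle ran from 11026 to 13736 (11952 to 12469 on leaving out a library), and 0 called genes changed sign. The number changed at least 2-fold ran from 4931 to 8302. In both ranges the low end is a minimum count of 30, with 15686 genes tested. The high end is no low-count filter, with 52545 tested, so the counts are of unlike totals (20511 in the main fit). Against 1.25 µM the count ran from 10538 to 13255, and the line difference from 9263 to 10476. Against the combination 1077 calls became 659 with the replicate block, 717 in a fit of the groups compared alone, 1740 with DESeq2 and 197 to 1509 on leaving out a library, and the causes were not tested. With DESeq2 50.1% of the calls were higher at 10 µM, against 39.6%. Against 1.25 µM, scaling by library size alone moved the share higher from 52.1% to 59.2%.

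The labels do not state whether replicate numbers pair the samples. Deviations of same-numbered vehicle and 10 µM libraries correlated at -0.0463 to 0.0226, and 3 of 12 libraries correlated best with their own number. Over all 18 same-numbered pairs of OCUG-1 libraries the correlations ran from -0.196 to 0.244 (median -0.0295). With the block, 12604 genes were called at 10 µM against vehicle, 12033 against 1.25 µM and 9988 for the line difference. Of 248 called genes named by the rule, 0 lost the call with the block, and 7 lost it under some alternative (IGFBP1, KLK10, KRT7, MT1F, NKG7, PI3 and TIE1). None of these 7 changed sign.

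Medians of 11 small or divided lists changed sign under some alternative, 3 of them with both values beyond the spread between replicates. The SPRR median of -0.28 changed sign in 8 of 13 alternatives. Among them it became 0.96 with no low-count filter and 0.54, 0.64 and 0.37 without vehicle replicates 1, 2 and 3. Without 10 µM replicates 1, 2 and 3 it was 0.026, 0.44 and 0.57. The mucin median of 0.23 became -0.19 in the fit of the groups compared alone. The lineage factor median of -0.40 had the other sign in 5 of 13 alternatives. These include 0.26 without vehicle replicate 3 and 0.35 without 10 µM replicate 2, in a range of -0.64 to 0.35 on leaving out a library. The other 8 had a main or alternative value within that spread: epithelial-mesenchymal transition (0.16, range -0.020 to 0.24), DNA replication (-0.04, -0.13 to 0.061), ATP synthase (-0.03, -0.053 to 0.026), MondoA targets (-0.0058, -0.105 to 0.17), interferon response (0.00068, -0.088 to 0.11), integrins (-0.0027, -0.23 to 0.020), and endothelial (-0.17, -0.96 to 0.84) and immune markers (0.054, -0.069 to 0.89). No direction can be read from these medians. The cause was not tested. Among small counts that moved by over 1.5 times on leaving out 1 library, MAPK falls went from 2 to 1 (vehicle replicate 3 or 10 µM replicate 2), amino acid transporter falls from 1 to 2 (vehicle replicate 1 or 2 or 10 µM replicate 2), and falls of tRNA synthetases and of mitochondrial chaperones from 2 to 1 (vehicle replicate 1 or 10 µM replicate 3). ABC transporter rises went from 2 to 1 (vehicle replicate 1), the mitosis rise was lost (any library but vehicle replicate 2 or 10 µM replicate 2), 1 integrated stress response target fell (10 µM replicate 3), and 1 fibrinogen or acute phase gene rose (any library but 10 µM replicate 1). Scaling moved the median of all genes by at most 0.0273. Every scaling used is relative to the counts of the libraries, so a change in total RNA per cell was not measured. Extra runs for 4 libraries, the GC trend and 1 cell line limit all values.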
